A study of Homo sapiens with 12 samples.

Results

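The genes described here are 10 genes of the G1 phase of the cell cycle: the D cyclins CCND1, CCND2 and CCND3, their kinases CDK4 and CDK6, the kinase inhibitors CDKN1A (p21) and CDKN1B (p27), the retinoblastoma gene RB1, the ubiquitin ligase gene MDM2 and the replication clamp gene PCNA. A region was assigned to a gene when it lay inside the gene or at most 5000 bases upstream of its start by the deposited distances. This gave 98 of 327949 listed regions of 5-hydroxymethylcytosine (5hmC), with at least 1 region for each of the 10 genes, and 23 of 65535 listed regions of 5-methylcytosine (5mC), in 8 of the 10 genes. No 5mC region was listed for CCND1 or CDKN1B.

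The cells were HL-60, an established promyelocytic leukemia line of human origin, which dimethyl sulfoxide (DMSO) drives toward neutrophil-like cells. Undifferentiated cells were viable and sorted as negative for CD11b, a surface protein of mature myeloid cells. Differentiated cells had received 1.5% DMSO (211 mM) for 7 days and were viable and sorted as positive for CD11b. Each state had 3 biological replicates, and the DNA of each was divided between an antibody against 5mC and one against 5hmC, which gave 12 libraries. No other allele or agent was named for either state, and the comparison is one between sorted fractions of a single line. Capture by antibody counts marked fragments rather than giving the share of cytosines that carry a mark, and it also follows CpG density and the number of copies of a locus. No input library was analysed here. The tables hold no expression values, so neither the cell type nor the output of these genes could be checked with them.

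In G1, growth signals raise the D cyclins, which bind CDK4 or CDK6. The active kinases phosphorylate the RB1 protein, which then releases the E2F transcription factors that turn on genes of DNA replication, PCNA among them. CDKN1A and CDKN1B bind cyclin-kinase complexes and hold cells in G1, and HL-60 cells are known to leave the cycle as they mature. 5mC at a gene start is usually found where the gene is silent, while 5hmC, made from 5mC by TET enzymes, is known to lie mostly in the bodies of active genes and in enhancers.

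Promoter windows of PCNA, CDK4, CCND3 and MDM2 show how the CpG sites that both marks need are spread. All listed regions of MDM2 lie in the gene body, so none of them is a start region. Windows were taken from the RefSeq promoter table (GRCh38.p14), which holds 15 windows for 8 of the 10 genes; CCND1 and CCND2 had no entry. The region coordinates below are in hg19 and were not converted, so the windows and the regions cannot be placed on each other. Each line gives the 250 bases before a start, 5′ to 3′ on the strand of the gene, with CG in capitals.
PCNA, first window, chr20:5119959-5120208, minus strand: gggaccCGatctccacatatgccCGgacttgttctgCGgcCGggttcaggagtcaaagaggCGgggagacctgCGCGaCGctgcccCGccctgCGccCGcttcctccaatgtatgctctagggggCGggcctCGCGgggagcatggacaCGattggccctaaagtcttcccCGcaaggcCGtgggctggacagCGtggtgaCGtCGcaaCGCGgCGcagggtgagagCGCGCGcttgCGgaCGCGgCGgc
PCNA, second window, chr20:5126623-5126872, minus strand: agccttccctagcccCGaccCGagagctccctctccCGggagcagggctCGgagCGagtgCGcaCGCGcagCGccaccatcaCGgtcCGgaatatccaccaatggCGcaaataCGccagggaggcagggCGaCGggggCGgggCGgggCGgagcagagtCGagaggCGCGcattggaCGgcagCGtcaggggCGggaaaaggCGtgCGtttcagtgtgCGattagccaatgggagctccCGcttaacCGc
CDK4, chr12:57752311-57752560, minus strand: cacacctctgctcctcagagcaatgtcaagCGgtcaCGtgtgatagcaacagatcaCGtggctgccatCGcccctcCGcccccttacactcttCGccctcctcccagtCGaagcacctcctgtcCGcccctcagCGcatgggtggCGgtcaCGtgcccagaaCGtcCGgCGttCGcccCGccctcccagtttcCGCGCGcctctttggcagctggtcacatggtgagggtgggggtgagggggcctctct
CCND3, first window, chr6:41939206-41939455, minus strand: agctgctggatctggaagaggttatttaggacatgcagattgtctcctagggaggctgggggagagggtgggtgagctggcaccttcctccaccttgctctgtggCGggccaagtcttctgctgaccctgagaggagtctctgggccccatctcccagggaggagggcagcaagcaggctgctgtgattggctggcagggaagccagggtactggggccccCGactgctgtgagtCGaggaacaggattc
CCND3, second window, chr6:41941809-41942058, minus strand: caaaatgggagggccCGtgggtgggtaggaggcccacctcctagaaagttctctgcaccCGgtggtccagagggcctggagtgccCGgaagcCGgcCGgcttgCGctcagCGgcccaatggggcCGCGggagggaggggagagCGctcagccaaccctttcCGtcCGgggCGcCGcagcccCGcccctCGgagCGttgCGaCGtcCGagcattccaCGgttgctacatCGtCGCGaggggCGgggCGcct
MDM2, chr12:68807922-68808171, plus strand: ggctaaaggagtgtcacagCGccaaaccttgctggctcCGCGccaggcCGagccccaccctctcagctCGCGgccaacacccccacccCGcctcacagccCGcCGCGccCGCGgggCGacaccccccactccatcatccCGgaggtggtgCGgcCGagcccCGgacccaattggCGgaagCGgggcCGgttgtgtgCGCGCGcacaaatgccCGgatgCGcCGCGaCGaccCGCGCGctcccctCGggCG

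These 6 of the 15 windows hold 30, 29, 19, 3, 26 and 33 CG sites in the order printed, against a median of 11 over all 35116 windows of this length. Those not printed hold 26 (CCND3), 23 and 30 (CDK6), 27 (CDKN1A), 27 (CDKN1B), 33, 17 and 17 (MDM2) and 0 (RB1). The first CCND3 window has the fewest of the 6 and lies before another start than the second. Both strands were searched for 4 forms of the E2F motif (TTTCCCGC, TTTGGCGC, TTTCGCGC and TTTGCCGC) and for the SP1 motif GGGCGG, which can overlap an E2F form. An E2F form was present in 3 of the 15 windows, namely the second PCNA window and 2 overlapping MDM2 windows, and in 2.79% of all windows. GGGCGG was present in 11 of the 15 and in 42.6% of all. A match describes the letters only.

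The 5hmC libraries held 13010267 to 33693880 counts in listed regions. The 5mC libraries held 6076100 to 9670011, which is not their depth, because the deposited 5mC table is only part of a longer list. In the authors' deposited table the 65535 regions stand in order of p-value and end at 0.0165; that number of rows is the most an old spreadsheet format holds under a header, and no reason for the end is stated in the labels or headers. Shares of 5mC regions or genes that changed therefore describe the listed regions, which have the smallest p-values, and not the genome. Values are given as CPM, which are counts scaled to a common library total, with TMM factors, and changes as log2 fold changes of differentiated over undifferentiated with their standard error (SE). The library total is the sum of counts in the listed regions of the mark and not the sequencing depth. For 5mC it therefore comes from the cut list. All adjusted p-values are from edgeR's quasi-likelihood test, adjusted by the Benjamini-Hochberg method, with 3 libraries per state, unless DESeq2 is named. CPM of regions and of genes were scaled separately.

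Summed over each gene, 5hmC fell at 4 of the 10 genes, rose at 0 (0 also at an unadjusted p under 0.05 and with DESeq2) and did not pass the test at 6. Over all 20404 genes tested, 25.8% fell and 25.7% rose. The 4 were CCND3, MDM2, PCNA and CDKN1B. The median log2 fold change of the 10 was −0.11, beside 0.01 for all genes. No overlap between the libraries of the 2 states was seen at 4 of the 10 genes, beside 57.1% of all genes. For 5mC, 4 of the 8 genes with a listed region fell (CCND3, RB1, PCNA and CDKN1A), 2 rose (CCND2 and CDK4) and 2 did not pass. Among the 12637 genes with a listed 5mC region, 43.2% fell and 41% rose. The median of the 8 was −0.21, beside 0 for all genes of that list, and the states did not overlap at 5 of the 8 and at 77.8% of all.

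Scaling bears on these counts. Without TMM, the median of all genes moved from 0.01 to −0.19 for 5hmC and from 0 to −0.31 for 5mC. 5hmC calls at the 10 genes were then 5 lower and 0 higher, with CDK4 added (−0.41, adjusted p = 0.018). Of all genes, 41.9% were then lower and 7.8% higher for 5hmC. 5mC calls were 5 lower and 1 higher without TMM, beside 54.1% and 11.1% of all genes with a listed 5mC region. With TMM fitted on the strongest 10% of genes they were 5 lower and 2 higher, beside 50% and 22.7%. MDM2 then joined the lower 5mC genes (−0.37 without TMM, −0.26 with TMM on strong genes). The falls of 5hmC at CCND3, MDM2 and PCNA and of 5mC at CCND3 and RB1 passed under each scaling, with DESeq2, with a replicate block and without any 1 library.

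**Figure D1:**
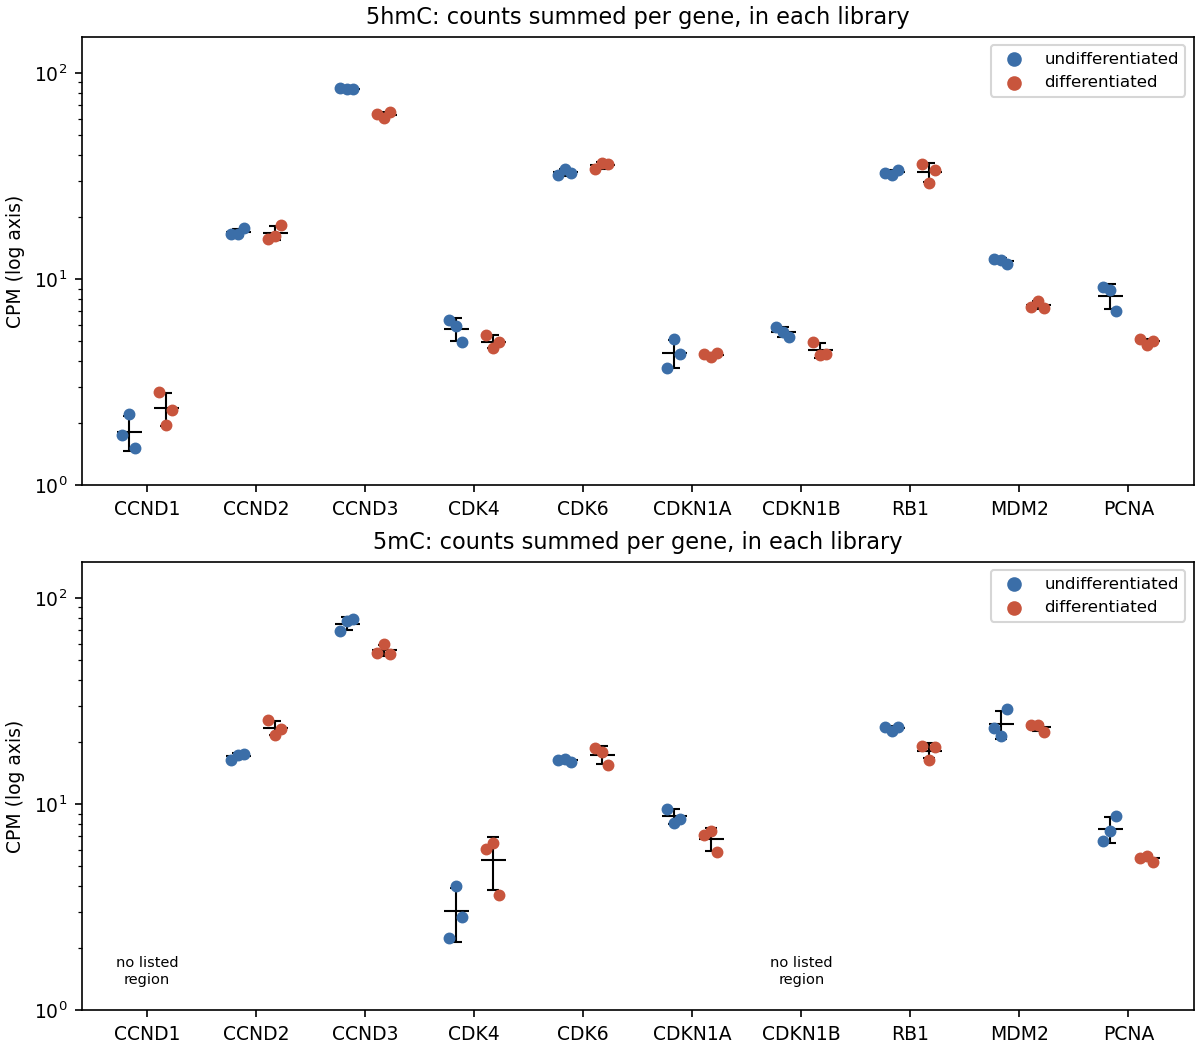
CPM of 5hmC (top) and 5mC (bottom) summed per gene on a log axis, with 1 point per library and the mean ± SD (n = 3) of each state in black. For 5hmC the differentiated libraries of CCND3, MDM2, PCNA and CDKN1B lie below all undifferentiated ones; for 5mC the states of CCND2, CCND3, CDKN1A, RB1 and PCNA do not overlap.

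**Figure D2:**
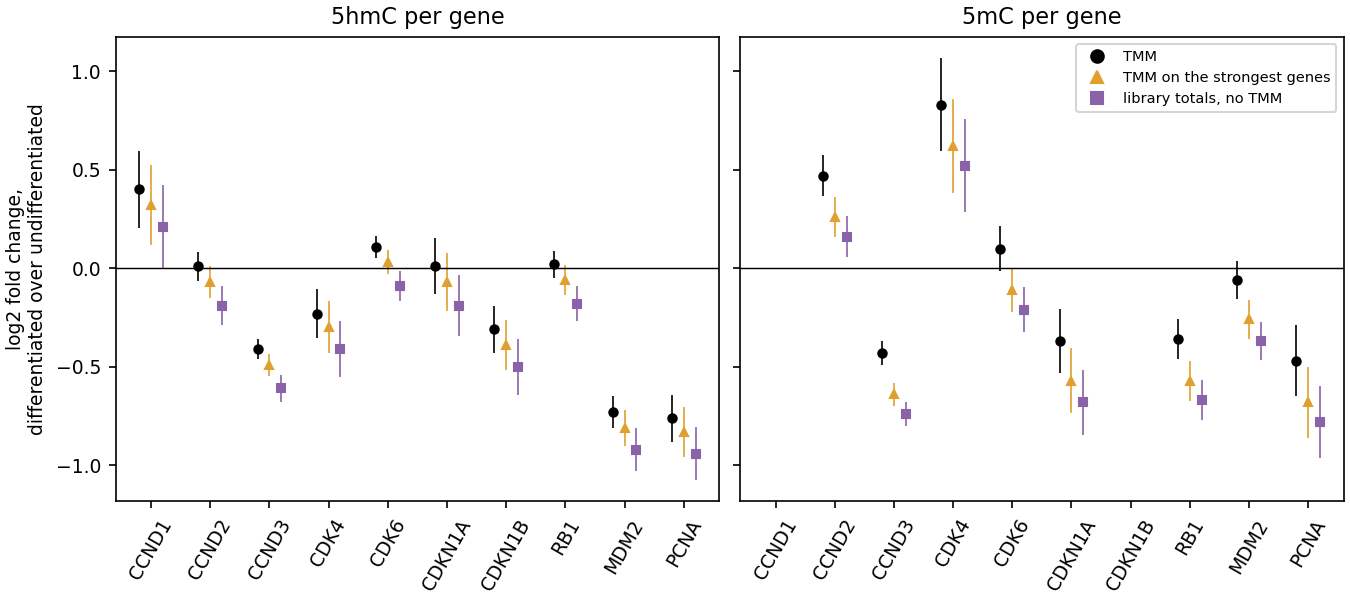
Log2 fold change per gene (± SE) with TMM, with TMM on the strongest genes and with library totals (counts in listed regions) alone. Each scaling moves all genes together; CCND3, MDM2 and PCNA for 5hmC and CCND3 and RB1 for 5mC stay below 0 under all 3, while CCND2, CDKN1A and RB1 for 5hmC and CDK6 for both marks change sign.

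Per kilobase of listed region, the order of 5hmC levels in undifferentiated cells ran from CDKN1A (4.38 ± 0.693 CPM per kb, SD, n = 3) through RB1 (3.06 ± 0.0893), MDM2 (3.06 ± 0.0729), CDK4 (2.87 ± 0.359), CCND3 (2.69 ± 0.018), CDK6 (2.62 ± 0.0972), PCNA (2.45 ± 0.343), CDKN1B (2.31 ± 0.126) and CCND2 (2.23 ± 0.088) to CCND1 (1.52 ± 0.296). The gap from CDKN1A to RB1 and the gap from CCND2 to CCND1 were wider than the SDs of the neighbours, and no other neighbours differed beyond their SDs. The median over all genes and libraries was 2.55 CPM per kb. Averaged over all libraries, CDKN1A lay above 92.4% of genes and CCND1 above 6.4%. In differentiated cells MDM2 was at 1.87 ± 0.0839 and PCNA, then the lowest of the 10, at 1.47 ± 0.0462 CPM per kb. For 5mC the highest level in undifferentiated cells was that of CCND2 (12.2 ± 0.421 CPM per kb), which overlapped that of MDM2 (10.2 ± 1.62) within SDs. The lowest were PCNA (5.42 ± 0.777) and CDK4 (5.03 ± 1.48).

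By region, 41 of the 98 5hmC regions were lower in differentiated cells, 15 were higher and 42 did not pass. Over all 327901 regions tested, 23.3% were lower and 27% higher. The median of the 98 was −0.40, with a range of −1.44 to 0.99, beside −0.04 for all regions, and 54 of the 98 had states that did not overlap, beside 52.2% of all. The regions spanned 400 to 2800 bases and held as few as 4 counts in a library. Of the 98, 88 lay in gene bodies only, 2 lay in CpG islands and 12 within 2 kb of one. For 5mC, 12 of the 23 regions were lower, 5 higher and 6 did not pass, beside 37.1% lower and 35.7% higher of the 65534 listed regions tested. Their median was −0.55, beside 0.22 for that list, and 20 of the 23 did not overlap between states, beside 86.1% of the list. None of the 23 lay in a CpG island, beside 2.35% of the list.

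Scaling moved the split by region further than by gene. Without TMM, which moved the median of all 5hmC regions from −0.04 to −0.25, 55 5hmC regions were lower and 5 higher, beside 36.1% and 14% of all regions. With TMM on strong regions (median −0.33) 59 were lower and 4 higher, beside 41.2% and 10% of all, so the split of all regions moved the same way. For 5mC (median 0.22, then −0.03 and −0.07) both scalings gave 17 lower and 0 higher, beside 49.9% lower and at most 3.81% higher of the listed regions, so each higher 5mC region named below lost its call under both. DESeq2 called 21 5hmC regions lower and 3 higher, beside 7.09% and 13.2% of all. It called 0 5mC regions of the 10 genes either way, beside 2.22% lower and 2.98% higher of the listed regions. Of the 5mC regions of the 10 genes, 12 lower and 5 higher ones had an unadjusted p under 0.05 by DESeq2. Without TMM, 3 higher 5mC regions had an unadjusted p under 0.05 by edgeR. Of the higher 5hmC regions named below, chr6:41995001-41996200, chr7:92291001-92291800, chr12:69232001-69232400, chr13:49001001-49002600 and chr13:49020601-49021400 lost their call both with DESeq2 and with TMM on strong regions. Higher 5hmC regions numbered 6 without undifferentiated replicate 1 and 6 without differentiated replicate 3, beside 17.5% and 18.9% of all. Lower 5mC regions numbered 6 without undifferentiated replicate 3, 7 without differentiated replicate 2 and 6 without differentiated replicate 3. In these runs 23%, 23.3% and 23% of the listed 5mC regions were lower. Higher 5mC regions numbered 1 without differentiated replicate 1 and 3 without each of undifferentiated replicates 1, 2 and 3 and differentiated replicate 2. Of the listed 5mC regions, 23% were higher without differentiated replicate 1 and 21.6% to 23.1% in the other runs just named.

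**Figure D3:**
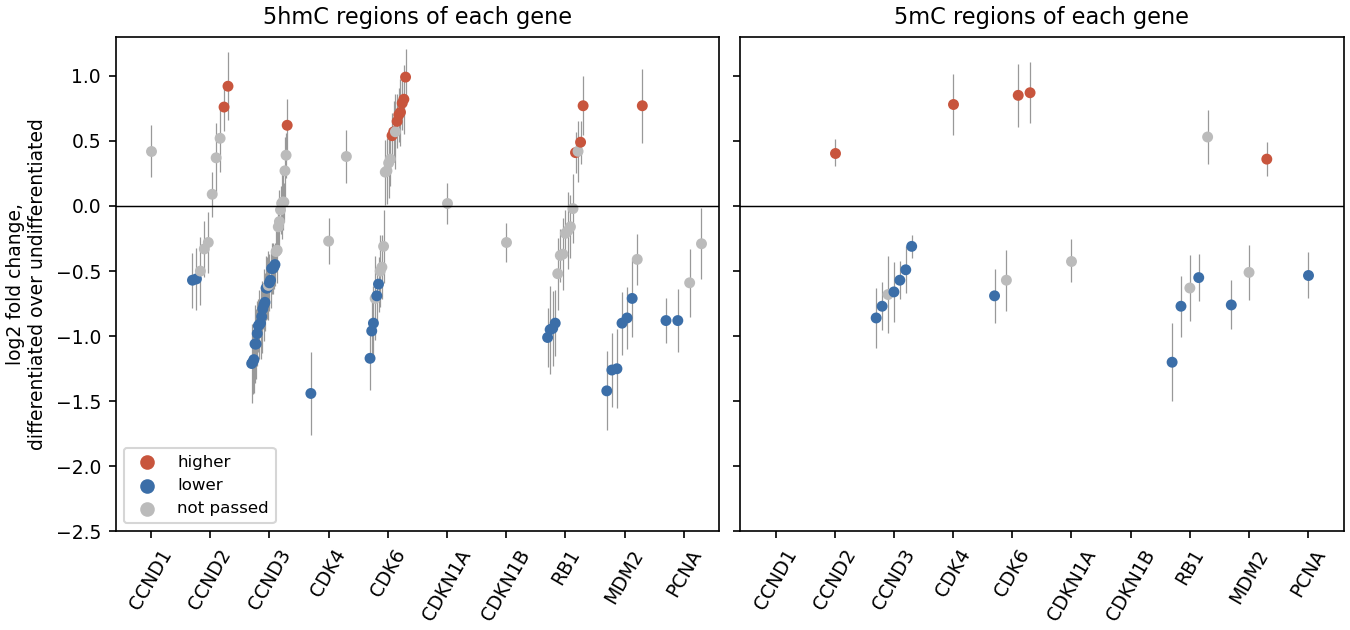
Log2 fold change (± SE) of each 5hmC region (left) and 5mC region (right), in order of size within each gene and coloured by call. CCND3, MDM2 and PCNA hold mostly lower 5hmC regions, while CDK6 holds 8 higher and 5 lower ones; no higher 5mC call held under the other scalings.

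Among the D cyclins, CCND3 carried the most regions and lost both marks in its listed regions. Its 33 5hmC regions, summed, held 84.2, 83.2 and 83.3 CPM in undifferentiated replicates 1, 2 and 3 and 63.1, 60.2 and 64.5 CPM in differentiated replicates 1, 2 and 3. Every differentiated library lay below every undifferentiated one. The change was −0.41 (SE 0.0503, adjusted p = 4.89e-05). Of the 33 regions 21 were lower, 1 was higher and 11 did not pass, with changes from −1.21 to 0.62 and 27 of 33 below 0. Its 7 5mC regions together held 68.9, 77.8 and 78.7 CPM in undifferentiated and 54.2, 59.7 and 53.7 CPM in differentiated libraries, again with no overlap (−0.43, SE 0.0595, adjusted p = 2.13e-09). All 7 changes were below 0 and 6 passed. The 5mC list holds only regions with a small deposited p for this same comparison. These 5mC p-values can therefore be too small and are not independent support.

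The CCND3 region with the smallest p, inside the gene (chr6:41967801-41969200), had 5.89, 4.92 and 6.40 CPM of 5hmC in undifferentiated and 3.66, 3.22 and 3.10 in differentiated libraries (−0.79, SE 0.156, adjusted p = 9.39e-05) and passed under every alternative run. The CCND3 region with the highest 5hmC CPM, also inside the gene (chr6:41931601-41933400), did not move with it: it held 9.73 ± 1.03 and 10.0 ± 1.38 CPM (0.03, SE 0.15, adjusted p = 0.87). Per kb it held 5.49 CPM, beside 5.78 in chr6:41999401-41999800. Nearest to a listed start, 849 bases upstream of it and within a longer form of the gene, the region chr6:41910401-41911000 fell from 2.06 ± 0.306 to 1.17 ± 0.242 CPM (−0.74, SE 0.224, adjusted p = 0.0059; with DESeq2 −0.76, adjusted p = 0.0583). The only higher region (chr6:41995001-41996200, 0.62, SE 0.201, adjusted p = 0.00973) had overlapping states and was lost without TMM (0.41), without undifferentiated replicate 1 (0.50) and without differentiated replicate 3 (0.28). The 5mC region of CCND3 with the highest CPM (chr6:41913601-41918000, 7.26 CPM per kb, beside 10.1 in chr6:41999401-41999800) went from 35.4 ± 3.29 to 28.5 ± 2.39 CPM (−0.31, SE 0.0886, adjusted p = 0.0101), a call lost without undifferentiated replicate 3 (−0.26) or differentiated replicate 3 (−0.27). Its 5mC region with the smallest p (chr6:41961001-41962000) fell from 8.06 ± 0.763 to 4.70 ± 0.32 CPM (−0.77, SE 0.183, adjusted p = 0.00204; with DESeq2 −0.78, adjusted p = 0.0806).

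CCND2 had 10 5hmC regions, of which 2 were higher, 2 lower and 6 did not pass. Their sum was 16.6, 16.5 and 17.7 CPM in undifferentiated and 15.7, 16.2 and 18.3 CPM in differentiated libraries, which overlap (0.01, SE 0.0739, adjusted p = 0.909), and its sign turned without TMM (−0.19). The sum hides regions that moved apart. Inside the gene, chr12:4390601-4391200 rose from 1.81 ± 0.0779 to 3.06 ± 0.652 CPM (0.76, SE 0.187, adjusted p = 0.00114) and passed under every alternative run. Further along, chr12:4410201-4411200 went from 2.25 ± 0.371 to 1.54 ± 0.442 CPM with overlapping states (−0.57, SE 0.21, adjusted p = 0.0209), a call lost without undifferentiated replicate 1 (−0.40), without differentiated replicate 3 (−0.47) with the replicate block (−0.51) and with DESeq2 (−0.54, adjusted p = 0.146). At the start, where the deposited distance is 0, chr12:4382601-4383000 did not pass (0.37, SE 0.264, adjusted p = 0.224).

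The single 5mC region of CCND2 (chr12:4408001-4409400) lies inside the gene, between its 2 lower 5hmC regions. Summed for the gene it held 16.4, 17.3 and 17.5 CPM in undifferentiated and 25.6, 21.7 and 23.2 CPM in differentiated libraries. All 3 differentiated libraries were higher (0.47, SE 0.102, adjusted p = 5.58e-05), but the change was 0.16 without TMM (adjusted p = 0.169). CCND1 had 1 5hmC region, inside the gene (chr11:69467001-69468200). With 1.75, 2.21 and 1.51 CPM in undifferentiated and 2.84, 1.96 and 2.31 CPM in differentiated libraries, its states overlap (0.40, SE 0.195, adjusted p = 0.101). The region fit called it higher when undifferentiated replicate 2 (0.54) or differentiated replicate 2 (0.48) was left out.

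The 2 kinases differed in how their regions were spread. CDK4 is a short gene with 3 5hmC regions, which summed to 6.33, 5.93 and 4.94 CPM in undifferentiated and 5.35, 4.64 and 4.93 CPM in differentiated libraries (−0.23, SE 0.125, adjusted p = 0.138), with overlap. The 3 regions went different ways. One inside the gene (chr12:58142201-58142800) had the largest fall of the 98, from 1.52, 1.21 and 0.845 to 0.451, 0.537 and 0.438 CPM (−1.44, SE 0.318, adjusted p = 0.000349), on 6 to 56 counts per library, and passed under every alternative run. The region at the start, deposited distance 0 (chr12:58145001-58145800), had 1.68 ± 0.26 and 2.16 ± 0.2 CPM (0.38, SE 0.205, adjusted p = 0.108). The third lies 4771 bases upstream, inside a neighbour whose name the file gives as a date (chr12:58151001-58151600, −0.27, SE 0.178, adjusted p = 0.186). It passed as lower under both other scalings (−0.48 without TMM, −0.56 with TMM on strong regions).

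The single 5mC region of CDK4 (chr12:58141401-58142000) also lies in TSPAN31, so its counts cannot be given to either gene. It held 2.25, 3.99 and 2.83 CPM in undifferentiated and 6.07, 6.44 and 3.62 CPM in differentiated libraries, where differentiated replicate 3 lay below undifferentiated replicate 2. By gene the change was 0.83 (SE 0.237, adjusted p = 0.00153). Fitted as a region (0.78, adjusted p = 0.0162) the call was lost without undifferentiated replicate 1 (0.59) or 3 (0.74) and without differentiated replicate 1 (0.66) or 2 (0.64).

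CDK6 is a long gene, whose 22 5hmC regions span 219 kb of it and cover 5.75% of that span. Their sum was 31.9, 34.4 and 32.8 CPM in undifferentiated and 34.1, 36.6 and 36.1 CPM in differentiated libraries, with overlap (0.11, SE 0.0558, adjusted p = 0.112; −0.09 without TMM). Beneath that sum 8 regions were higher, 5 lower and 9 did not pass. The highest change of all 98 was here, in chr7:92285201-92285600, with 1.41, 1.4 and 1.39 CPM in undifferentiated and 2.71, 4.39 and 2.10 CPM in differentiated libraries (0.99, SE 0.214, adjusted p = 0.000279). The region of the gene with the highest CPM (chr7:92291001-92291800) held 4.15 CPM per kb, beside 5.58 in chr7:92285201-92285600. It had overlapping states (2.86 ± 0.396 and 3.78 ± 1.24 CPM, 0.54, adjusted p = 0.00933) and was lost without undifferentiated replicate 1 (0.39), without differentiated replicate 3 (0.30) and without TMM (0.33). The most significant fall, in chr7:92378201-92378800, was from 1.95 ± 0.192 to 0.814 ± 0.174 CPM (−1.17, SE 0.247, adjusted p = 0.000214) and passed under every alternative run, as did the rise of chr7:92285201-92285600.

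For 5mC, CDK6 had 4 regions, 2 higher, 1 lower and 1 that did not pass. Summed, they held 16.3, 16.5 and 16.0 CPM in undifferentiated and 18.8, 17.9 and 15.5 CPM in differentiated libraries, where differentiated replicate 3 was the lowest of the 6 (0.10, SE 0.112, adjusted p = 0.415; −0.21 without TMM). One region fell from 6.43 ± 0.555 to 4.09 ± 1.65 CPM (chr7:92303001-92303600, −0.69, SE 0.207, adjusted p = 0.0162). That call was lost without undifferentiated replicate 3 (−0.61), differentiated replicate 1 (−0.45) or differentiated replicate 3 (−0.63). Another rose from 2.81 ± 0.557 to 5.15 ± 0.946 CPM (chr7:92432601-92433200, 0.87, SE 0.235, adjusted p = 0.0071), a call lost without undifferentiated replicate 3 (0.72), without differentiated replicate 1 (0.74) and without TMM (0.62).

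Neither inhibitor gene passed as higher for 5hmC. CDKN1A had 1 5hmC region in the gene body (chr6:36648601-36649600, 136 bases from a CpG island). It held 3.71, 5.10 and 4.34 CPM in undifferentiated and 4.34, 4.19 and 4.37 CPM in differentiated libraries, which overlap (0.01, SE 0.143, adjusted p = 0.95; −0.19 without TMM). The 5mC region that overlaps it (chr6:36648801-36649800) held 9.52, 8.12 and 8.48 CPM in undifferentiated and 7.10, 7.43 and 5.83 CPM in differentiated libraries, with every differentiated library lower. By gene the change was −0.37 (SE 0.164, adjusted p = 0.0331), and it did not pass without undifferentiated replicate 1 (−0.30) or differentiated replicate 3 (−0.27), with DESeq2 (−0.37, adjusted p = 0.115) or as a region (−0.42, adjusted p = 0.0658). Under both other scalings the region passed as lower (−0.68 and −0.71).

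CDKN1B had 1 5hmC region, 3903 bases upstream of its start (chr12:12864001-12866400). Its levels were 5.84, 5.54 and 5.24 CPM in undifferentiated and 4.96, 4.28 and 4.34 CPM in differentiated libraries, with no overlap. The fall by gene (−0.31, SE 0.119, adjusted p = 0.043) was close to the threshold. It was lost without undifferentiated replicate 1 (−0.26) or 2 (−0.31), without differentiated replicate 2 (−0.29) or 3 (−0.26), with the replicate block (−0.28) and with DESeq2 (−0.29, adjusted p = 0.163), and the region fit did not call it (−0.28, adjusted p = 0.0982) except under the other scalings (−0.50 without TMM, −0.58 with TMM on strong regions).

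The last regions inside the limit of 5000 bases were the CDK4 region 4771 bases upstream (−0.27) and, for 5mC, the CCND3 region 4049 bases upstream (−0.31). The first ones outside it lay upstream of CCND3 in TAF8, at 5391 bases for 5hmC (−0.30, adjusted p = 0.26) and 5591 bases for 5mC (−0.77, adjusted p = 0.0125). Next for 5hmC came regions 8238 bases upstream of CDKN1A (−0.65, adjusted p = 0.0664) and 8674 bases upstream of CCND1 (0.01, adjusted p = 0.967), which did not pass. Regions 8971 bases upstream of CDK4 (0.68, adjusted p = 0.00709) and 9103 bases upstream of CDKN1B (−0.85, adjusted p = 0.00159) passed. Next for 5mC a region 9103 bases upstream of CDKN1B passed as lower (−1.11, adjusted p = 0.000566). Those further out, up to 14874 bases, ranged from −1.12 to 1.05 for 5hmC and from −0.66 to 0.32 for 5mC, so values of both signs lay outside the limit.

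At RB1, summed 5hmC did not pass the test and the summed 5mC of its listed regions fell. Its 15 5hmC regions held 32.9, 32.1 and 34.0 CPM in undifferentiated and 36.3, 29.3 and 34.0 CPM in differentiated libraries, which overlap (0.02, SE 0.0682, adjusted p = 0.781; −0.18 without TMM). The sum includes a region shared with LPAR6, with means of 10.2 CPM in undifferentiated and 13.3 CPM in differentiated libraries. Of the 15 changes at RB1, 11 were below 0, with a median of −0.21. Its 5 5mC regions together held 23.8, 22.7 and 23.7 CPM in undifferentiated and 19.1, 16.4 and 19.0 CPM in differentiated libraries. Each differentiated library was lower (−0.36, SE 0.1, adjusted p = 0.00122). Of the 5 regions 3 were lower and 2 did not pass.

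Along RB1 the 4 lower 5hmC regions lie in 1 stretch (chr13:48936001-48984000) with no higher region in it, and the 3 higher ones lie before or after it. The lower region with the smallest p (chr13:48983201-48984000) went from 2.03, 2.27 and 2.72 to 1.18, 1.43 and 0.971 CPM (−1.01, SE 0.226, adjusted p = 0.000402) and passed under every alternative run. The strongest RB1 region (chr13:49001001-49002600) also overlaps LPAR6, a receptor gene within RB1, and had 10.1, 10.5 and 9.90 CPM in undifferentiated and 15.9, 9.58 and 14.3 CPM in differentiated libraries (0.41, SE 0.155, adjusted p = 0.0256). Its states overlap, and the call was lost without any 1 library other than differentiated replicate 2 (0.27 to 0.43), with the replicate block (0.38, adjusted p = 0.0888), without TMM (0.20) and with DESeq2 (0.41, adjusted p = 0.0863). The higher region with the smallest p (chr13:49020601-49021400, 0.77, SE 0.226, adjusted p = 0.00479) also had overlapping states and was lost without undifferentiated replicate 1 (0.56) or differentiated replicate 1 (0.62). The 5mC region chr13:48936001-48936400 had 3.51 ± 0.684 and 1.49 ± 0.465 CPM, a change of −1.20 (SE 0.298, adjusted p = 0.00335), on 7 to 30 counts per library. The 5mC region with the highest CPM (chr13:48940801-48941400, −0.55, SE 0.182, adjusted p = 0.0297) was lost without any 1 library other than undifferentiated replicate 1 (−0.58 to −0.48). Per kb it held 10.6 CPM, beside 12.5 in chr13:48885801-48886200.

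At MDM2, 5hmC fell in most of the listed regions, which cover 12.8% of the stretch they span. The sums were 12.5, 12.4 and 11.9 CPM in undifferentiated and 7.35, 7.85 and 7.21 CPM in differentiated libraries, far apart relative to their spread (−0.73, SE 0.083, adjusted p = 3.29e-05). Of 8 regions 6 were lower, 1 was higher and 1 did not pass. The region with the smallest p (chr12:69210001-69210400) went from 1.22, 1.45 and 1.63 to 0.620, 0.716 and 0.376 CPM (−1.42, SE 0.303, adjusted p = 0.000233), on 8 to 45 counts per library, and passed under every alternative run. The region with the highest CPM (chr12:69234001-69235000), near the far end of those listed, is the widest, and its 2.13 CPM per kb is the lowest of the 8. It had 2.38 ± 0.25 and 1.89 ± 0.228 CPM (−0.41, SE 0.196, adjusted p = 0.0688), and passed as lower without differentiated replicate 2 (−0.47) and under the other scalings (−0.62 without TMM, −0.70 with TMM on strong regions). The higher one (chr12:69232001-69232400, 0.77, SE 0.285, adjusted p = 0.0225) lies next to it and was lost without TMM (0.56), without undifferentiated replicate 1 (0.83) or 3 (0.67) and without differentiated replicate 1 (0.77) or 3 (0.66).

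The summed 5mC of MDM2 did not pass the test. It was 23.4, 21.3 and 28.8 CPM in undifferentiated and 24.1, 24.2 and 22.5 CPM in differentiated libraries (−0.06, SE 0.0961, adjusted p = 0.588), and 0.07 without undifferentiated replicate 3. Of its 3 regions, chr12:69226401-69227000 fell from 6.60, 7.96 and 9.23 to 5.52, 3.44 and 4.80 CPM (−0.76, SE 0.188, adjusted p = 0.00297; with DESeq2 −0.78, adjusted p = 0.101). The other call was higher (chr12:69218601-69219800, 0.36, SE 0.131, adjusted p = 0.0481) and was lost without undifferentiated replicate 1 (0.33) or 2 (0.29), without any 1 differentiated library (0.27 to 0.42) and without TMM (0.11).

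PCNA, whose protein holds DNA polymerases on their template, lost both marks in a listed region inside the gene and close to an inner start. Its 4 5hmC regions summed to 9.15, 8.82 and 6.98 CPM in undifferentiated and 5.12, 4.81 and 5.02 CPM in differentiated libraries. Undifferentiated replicate 3 was the lowest of its state and still above all differentiated ones (−0.76, SE 0.119, adjusted p = 0.000244). All 4 changes were below 0, and 2 passed. The region nearest to a start (chr20:5101401-5102800, 754 bases upstream of it and inside the gene, 535 bases from a CpG island) went from 4.45, 4.49 and 3.08 to 1.97, 2.51 and 2.25 CPM (−0.88, SE 0.174, adjusted p = 9.18e-05) and passed under every alternative run. The 2 regions 2533 and 4133 bases upstream are measured from another, outer start. They also lie in CDS2, a gene on the other side of that start, and had changes of −0.88 (adjusted p = 0.00315) and −0.59 (adjusted p = 0.0504).

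The single 5mC region of PCNA has the same coordinates as the 5hmC region near the inner start. By gene it held 6.61, 7.38 and 8.76 CPM in undifferentiated and 5.5, 5.6 and 5.25 CPM in differentiated libraries, with no overlap (−0.47, SE 0.18, adjusted p = 0.0135). The call was lost without undifferentiated replicate 3 (−0.36) and with DESeq2 (−0.48, adjusted p = 0.0633). As a region (−0.53, adjusted p = 0.0341) it was lost without any 1 library other than undifferentiated replicate 1 (−0.55 to −0.41). Counting only regions within 2000 bases upstream of a start left 4 of the 10 genes for 5hmC: CCND3 (−0.85, adjusted p = 0.00296) and PCNA (−0.99, adjusted p = 8.47e-05) were lower, and CCND2 (−0.11) and CDK4 (0.28) did not pass. Of all 11027 genes tested in that way, 24.6% were lower and 20% higher.

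**Figure D4:**
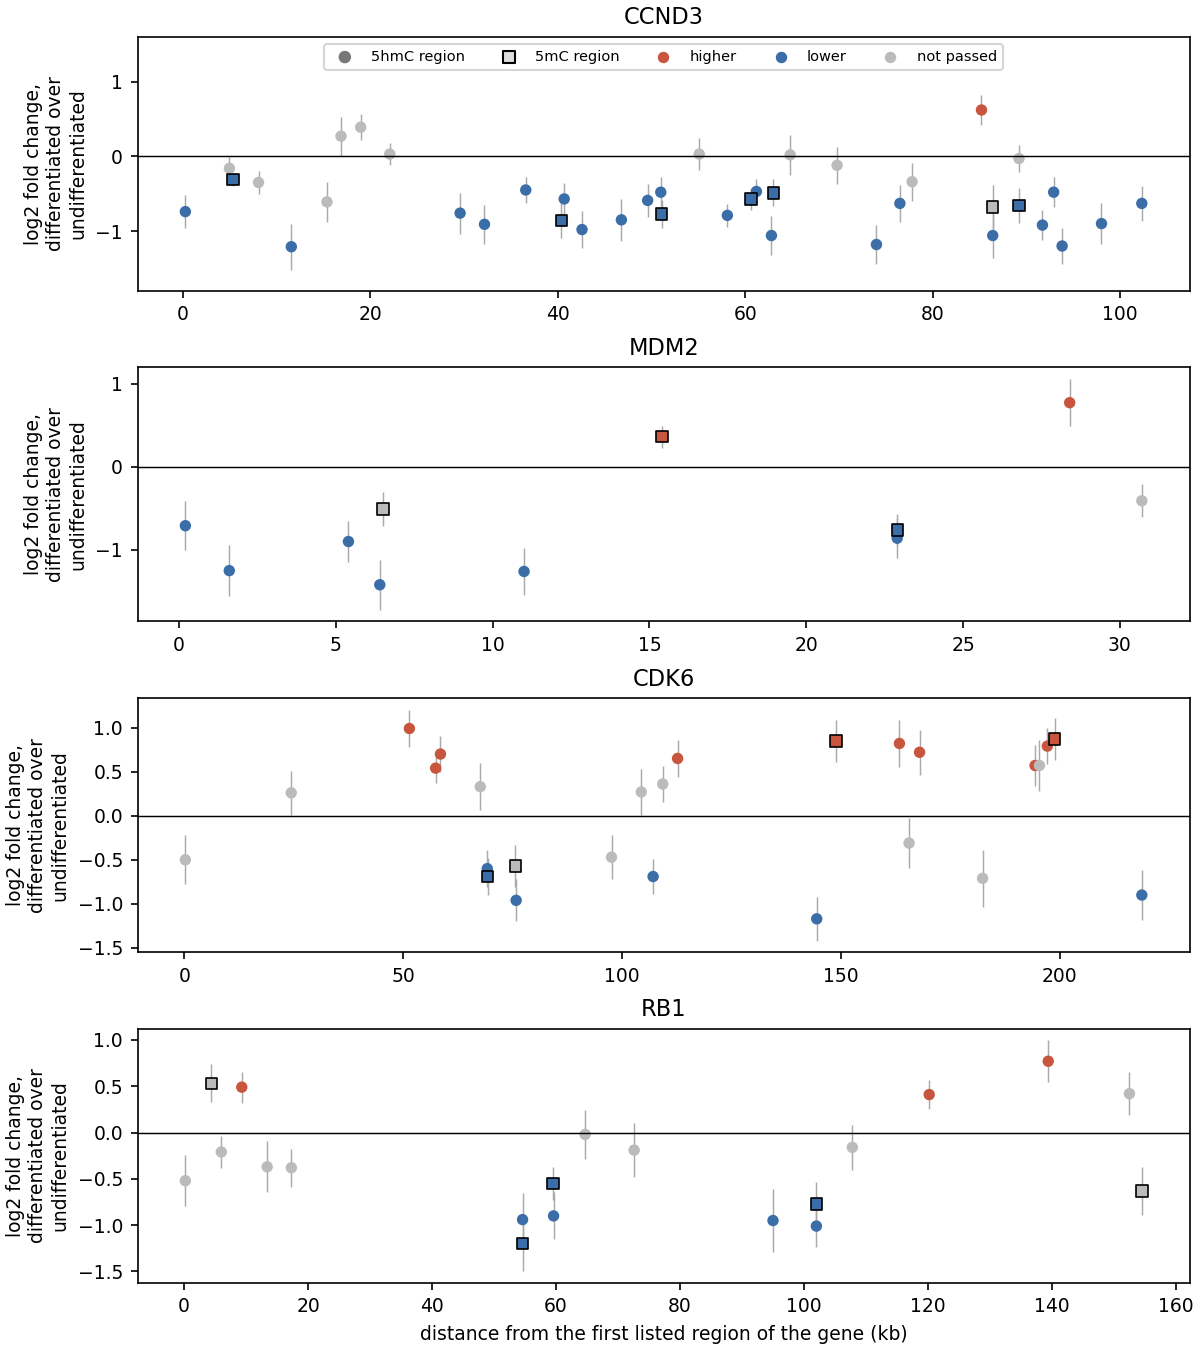
Log2 fold change (± SE) of each region along CCND3, MDM2, CDK6 and RB1, by distance in kb from the first listed region of the gene in genome order; circles are 5hmC and squares 5mC regions, coloured by call. Lower CCND3 and MDM2 regions are spread along the genes, CDK6 holds groups of higher and of lower regions, and the lower RB1 regions of both marks sit in the same central stretch.

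The 2 marks were set side by side where their regions overlap by at least 1 base, which happened in 17 pairs, made of 17 5hmC and 16 5mC regions in CCND3, CDK6, CDKN1A, MDM2, PCNA and RB1. Libraries of the 2 marks with the same state and number came from the same DNA. In 10 pairs both marks were lower, in 0 both were higher and in 0 the calls were opposite. Both changes were below 0 in 16 of 17 pairs, and in the CDKN1A pair they were 0.02 and −0.42. At CCND3 4 of 8 pairs were lower in both, at RB1 3 of 3 and at PCNA 1 of 1. RB1 region chr13:48936001-48936400 had the same edges for both marks and changes of −0.94 for 5hmC and −1.20 for 5mC. The 7 5mC regions with no 5hmC region on them hold all 5 higher calls of that mark. As the 5mC list holds only regions of small p and the scaling shifts all values of a mark together, these counts describe the listed regions only. The same shares over all overlapping pairs of the series are not given, so the counts cannot be called particular to these genes.

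**Figure D5:**
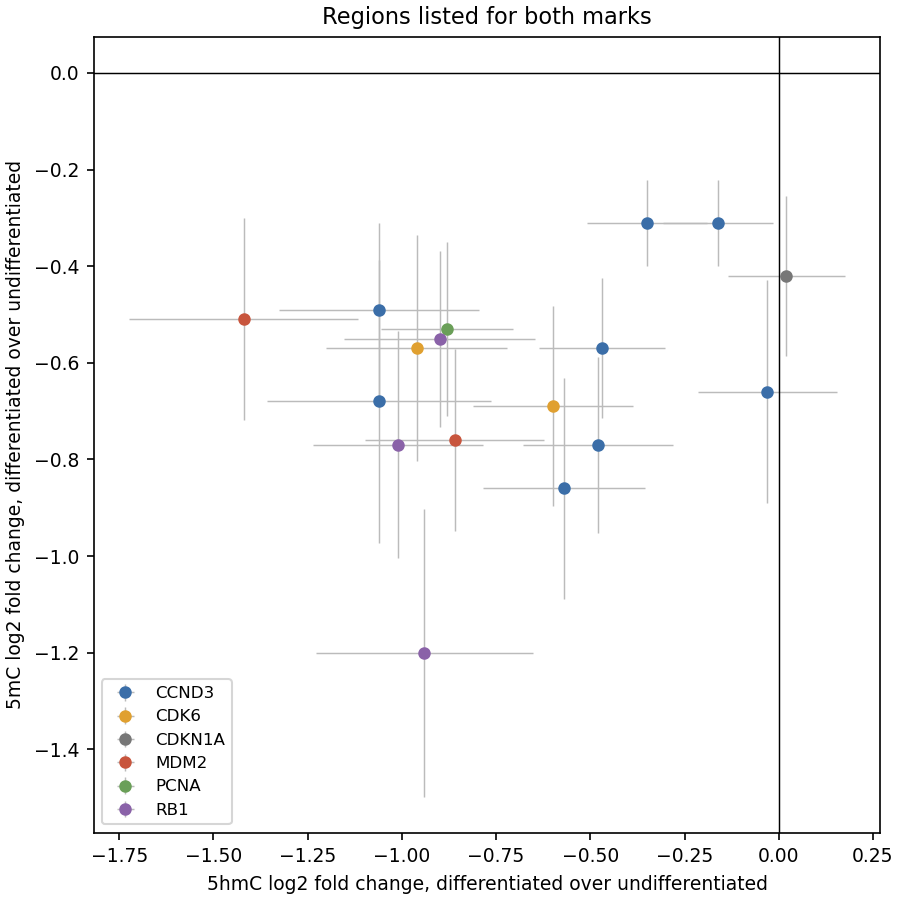
5mC change against 5hmC change (log2, ± SE) for the 17 pairs of overlapping regions, coloured by gene. Of the 17 points 16 lie where both changes are below 0, and the CDKN1A point lies at 0.02 for 5hmC and −0.42 for 5mC.

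A list of 62 other cell-cycle genes was described in the same way. For 5hmC, 54 had a region: 26 fell, 6 rose and 22 did not pass, with a median of −0.18. That is 48.1% lower and 11.1% higher, beside 25.8% and 25.7% of all genes, whose median was 0.01. The lower ones with the smallest p were RBL1, a relative of RB1 (−0.44, SE 0.0494), the E2F partner gene TFDP2 (−0.35, SE 0.0499), the mitotic phosphatase gene CDC25C (−0.44, SE 0.0744) and the replicative helicase gene MCM4 (−0.60, SE 0.106). The higher ones were led by E2F7, a repressor of the E2F family (0.60, SE 0.114), the DNA polymerase gene POLA1 (0.48, SE 0.0976), SKP2, whose ligase marks CDKN1B for breakdown (0.45, SE 0.155), and the E2F partner gene TFDP1 (0.18, SE 0.0654). The higher count was 2 without TMM (37 lower), 2 with TMM on strong genes (34 lower), and 3 without undifferentiated replicate 1, 2 or 3 or differentiated replicate 1. Of all genes, 7.8% were higher and 41.9% lower without TMM, and 17.7% and 32.7% with TMM on strong genes. Without those single libraries 17.5% to 22% of all genes were higher.

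For 5mC, 36 of the 62 had a listed region: 21 fell, 11 rose and 4 did not pass, with a median of −0.36. That is 58.3% lower and 30.6% higher, beside 43.2% and 41% of all genes with a listed 5mC region, whose median was 0. MYC (−0.49, SE 0.0343), TFDP2 (−0.43, SE 0.0543), RBL1 (−0.46, SE 0.0707) and CDC25C (−0.59, SE 0.0965) led the lower genes. TFDP1 (0.39, SE 0.0378), the checkpoint kinase gene CHEK1 (0.54, SE 0.0964), E2F7 (0.72, SE 0.137) and the mitotic kinase gene CDK1 (0.60, SE 0.121) led the higher ones. Without TMM 24 were lower and 4 higher, with TMM on strong genes 23 and 5, and the higher count was 7 without undifferentiated replicate 2 or differentiated replicate 2. Of all genes with a listed 5mC region, 54.1% were lower and 11.1% higher without TMM, and 50% and 22.7% with TMM on strong genes. Without those single libraries 38.8% and 38.7% were higher. CDKN2A, whose product p16 inhibits CDK4 and CDK6, had 1.07 ± 0.0342 and 1.1 ± 0.118 CPM of 5hmC (0.09, adjusted p = 0.755), while its 5mC rose from 5.31 ± 0.561 to 7.71 ± 0.658 CPM (0.53, SE 0.18, adjusted p = 0.00648). MYC, which promotes entry into S phase, had 1 very wide region for each mark. That of 5mC spans 83 kb and held 2060 ± 75.5 and 1470 ± 147 CPM, or 24.8 ± 0.909 and 17.7 ± 1.77 CPM per kb. That of 5hmC spans 83.4 kb and fell from 697 ± 26.1 to 530 ± 67 CPM (−0.40, SE 0.0765, adjusted p = 0.000967). Capture also follows the number of copies of a locus, which was not measured here. The values at MYC and CDKN2A therefore cannot be split into mark and copy number.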

How the data were processed

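HL-60 libraries of 2 marks (5mC by MeDIP, 5hmC by hMeDIP) were compared between 2 states, 3 against 3 for each mark. The submitters' processing notes list the build hg19 and the tools BWA, SAMtools 0.1.18, bedtools 2.17.0, SICER 1.1 and edgeR 2.11; their roles, and whether calling was pooled, are not given in the sources used here. For each mark the authors deposited raw read counts per enriched region, with edges on a 200-base grid. Per the file headers, distances to genes, promoters and CpG islands are included. The deposited log2 fold changes and mean log2 CPM were not used. The deposited p-values of the 5mC regions stop at 0.0165 (adjusted 0.0826), which implies 328588 tests for 65535 listed regions. P-values of 5mC regions were therefore adjusted over 328588 tests, and those of 5mC genes over the 12637 listed genes. Neither corrects for the list ending there, so both can be too small.

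Of the 5hmC regions, 18 with a blank count were left out, none of them in the 10 genes. Names turned into dates (786 5hmC and 136 5mC regions) were not matched. Counts were fitted over all listed regions or genes of a mark with filterByExpr, TMM and the quasi-likelihood F test of edgeR 4.0.16 (R 4.3.3, with limma 3.58.1) at a Benjamini-Hochberg threshold of 0.05. Alternatives were DESeq2 1.42.0, other scalings, no filter, a replicate block and leaving out each library. The SE is the change divided by the root of F. Starts and ends are 1-based. The promoter distance was read as upstream, so regions just downstream of a start can be missed by it, and exons and introns were not told apart. The scripts were tested on simulated data.

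The genes and lists were chosen with earlier results of these data known. Regions named were, per gene and mark, the smallest p in each direction among those past the threshold, the one nearest the start and the one with the highest mean CPM. That CPM was not divided by the width of the region, so it favours wide regions. Of the other genes, the 4 smallest p in each direction were named, plus CDKN2A and MYC; 1 further gene of that rule is not reported here. The PCNA regions in CDS2 and the regions just outside the distance limit were named after their values were seen.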

Additional observations from a re-analysis of the deposited data

How the results depend on the processing

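The labels do not say whether replicate numbers pair the states. The deviations of same-numbered libraries correlated at −0.11 to 0 for 5hmC and −0.01 to 0.01 for 5mC. With 3 libraries per state these values show no shared deviation but cannot show whether the libraries were paired. With a replicate block, 13 5hmC regions were higher and 35 lower, and 3 other cell-cycle genes were higher for 5hmC, against 15, 41 and 6 without it. With the block 23.2% of all 5hmC regions were higher and 19.6% lower, and 21.2% of all genes were higher for 5hmC. DESeq2 called 3 higher and 21 lower 5hmC regions of the 10 genes, 0 and 0 5mC regions, 2 lower 5mC genes, and of the other cell-cycle genes 2 higher for 5hmC and 7 higher and 13 lower for 5mC. Of all genes DESeq2 called 18.9% higher for 5hmC, and 34.9% higher and 29.5% lower for 5mC. Without TMM the higher counts were 5 (5hmC regions), 0 (5mC regions), 1 (5mC genes), 2 and 4 (other genes, 5hmC and 5mC); with TMM on strong regions or genes they were 4, 0, 2, 2 and 5. Regions within 2 kb upstream alone left 4 genes tested for 5hmC (2 lower) and 1 for 5mC (1 lower, 0 higher). Of all genes tested in that way, 24.6% were lower and 20% higher for 5hmC, and 42.9% and 35% for 5mC. The cause of these shifts was not tested.

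Leaving out 1 library gave 6 to 18 higher and 28 to 40 lower 5hmC regions, 1 to 4 higher and 6 to 12 lower 5mC regions, 3 to 4 lower genes for either mark, and of the other genes 3 to 5 higher for 5hmC and 7 to 11 higher for 5mC. Over all regions these runs gave 17.5% to 27.5% higher and 13.2% to 23.9% lower for 5hmC. For the listed 5mC regions they gave 21.6% to 23.1% higher and 22.8% to 23.7% lower. Over all genes they gave 17.5% to 27.7% higher and 18.9% to 26.9% lower for 5hmC. For 5mC genes the shares were 38.5% to 38.9% and 36.9% to 37.9%.

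No value that passed with TMM and all libraries changed sign. The values that did were not past the threshold in the setting that turned them, but CDK4 for 5hmC (−0.41) and MDM2 for 5mC (−0.37) passed as lower without TMM. For 5hmC by gene these were CCND2 (−0.19 without TMM, −0.07 with TMM on strong genes, −0.02 with the block, −0.11 near starts, −0.08 to 0.06 without 1 library, among them −0.0094 and −0.0039), CDK4 (0.28 near starts), CDK6 (−0.09 without TMM), CDKN1A (−0.19, −0.07, −0.00019 in gene bodies only, −0.13 to 0.13 without 1 library, among them −0.0013) and RB1 (−0.18, −0.06, −0.04 to 0.09 without 1 library). By region they were CCND2 chr12:4396001-4397600 (−0.12, −0.21, −0.09 to 0.22), CCND3 chr6:41931601-41933400 (−0.19, −0.27, −0.06 to 0.13, among them −0.02 and −0.0055) and CDKN1A (−0.19, −0.27, −0.11 to 0.14). For 5mC they were CDK6 (−0.21 and −0.11) and MDM2 (−0.14 to 0.07 without 1 library). Of the other comparisons of single genes and regions with their alternatives, 92 lost a call, 14 gained one and 479 stayed on the same side of the threshold, among them values that passed in neither. Counts per library were as low as 4 in a 5hmC region and 7 in a 5mC region, which limits what single regions can show.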
